A study of Mus musculus with 14 samples.

Results

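Cell junction and actin cytoskeleton genes were followed in the astrocytes of this series as a set of 39 genes, chosen by name. They cover junction scaffolds, cadherins and catenins, caveolins, partners of connexin43, the ezrin, radixin and moesin linkers, actins and their crosslinkers and regulators, and integrin adhesion, with a few further genes such as Cdc42. Of the 39, 32 had at least 1 probe in the probe-to-gene table, and for 30 the probe used was measured in enough samples to be tested. The table names 13661 genes in all, on an array of 33600 probes. No probe carried the symbol or gene identifier of the other 7, Ctnna1, Actn1, Flna, Arpc3, Ptk2, Rac1 and Rock2, which were not analysed here. Cav2 and Actb had probes whose best-measured one could not be tested. The 32 genes had 67 probes, and each gene is given by the probe with a value in the most samples.

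The series asks how the RNA of astrocytes without connexin43 (Cx43, encoded by Gja1) compares with that of astrocytes in which Cx43 was knocked down. The cells were cultured from newborn mice, and their titles call them cortical, while the protocol starts from the whole brain of each littermate, cultured separately. The groups used here are wild-type astrocytes (replicates 3, 4 and 6), Cx43 null astrocytes (replicates 1 to 4) and wild-type astrocytes given an siRNA against Cx43 (replicates 1 to 4). The design text gives 36 h of siRNA treatment and the protein protocol 48 h. Spotted long-oligonucleotide arrays were hybridised with 20 ug of directly labelled RNA, in Cy3 for odd and Cy5 for even replicate numbers. The strain, and which part of Gja1 the null allele lacks, are not stated in the labels. No label says which culture a sample came from, so p-values reflect the spread between samples alone, and that spread may be technical.

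Gap junctions are channels that join the cytoplasm of neighbouring cells, and Cx43 is the main channel protein of astrocytes. Its tail and its plaques are held at the membrane by scaffold proteins such as ZO-1, lie beside cadherin junctions and caveolae, and are tied to the actin cortex through drebrin and other linkers. Actin turnover and integrin adhesion set the shape and spreading of cultured astrocytes.

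Several facts about the samples touch every result below. Between 17849 and 26826 of the 33600 probes (53.1% to 79.8%) had a value in a sample. Each value is the authors' log2 value, centred so that the median probe of a sample is 0. Levels are therefore relative to that median and are not compared between genes. Wild-type replicates 1, 2 and 5 stood apart from the other 11 samples, with correlations across probes of 0.29 to 0.35 for the first pair and -0.29 to 0.04 for replicate 5, and were left out. The remaining samples formed 2 sets. Null replicates 1 and 2 correlated with null replicates 3 and 4 at 0.75 to 0.78, and the same pairs of siRNA samples at 0.77 to 0.80, while null or siRNA samples of consecutive number correlated at 0.93 to 0.99. The wild-type samples lay closer to replicates 3 and 4 (r of 0.85 to 0.92) than to replicates 1 and 2 (0.80 to 0.83), so the wild type has no sample in the first set. The set was a term of the fit, and samples of consecutive number, which carry opposite dyes and may share an array, were treated as blocks in an alternative that is given beside each call as the array-pair fit.

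The targeted gene was checked first. Gja1 read 6.08, 7.53 and 4.82 in wild type, -1.17, -1.06, 2.82 and 3.03 in null, and 1.93, 2.14, 5.47 and 5.70 in the siRNA samples, in order of replicate number. All null samples lay below all wild-type samples, and the fitted difference was -3.31 ± 0.58 on the log2 scale (SE, limma, adjusted p = 0.0478, and 0.276 in the array-pair fit). The siRNA samples of replicates 3 and 4 lay inside the wild-type range, and the fitted difference of -0.41 ± 0.58 did not pass (limma, adjusted p = 0.733). Because Gja1 did not mark these samples, they are called siRNA-labelled below.

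Of the astrocyte markers, 12 of 14 had a probe, and the mean of the 7 measured in all 11 samples ranged from 2.82 to 3.44 in wild type, 2.94 to 3.42 in null and 1.16 to 2.75 in siRNA-labelled samples. Gfap, the defining intermediate filament of astrocytes, had no value in any of the 11 samples at the probe used. Microglial markers moved with the siRNA label: 7 of 12 tested fell against wild type, with a median of -2.16 (3 of 12 in the array-pair fit). Of all probes, 2.12% passed as lower with the siRNA label, and 1.24% passed in either direction in the array-pair fit. The mean of 11 complete microglial markers was 3.75 to 4.12 in wild type, 2.48 to 4.89 in null and 1.99 to 2.56 in siRNA-labelled samples. Of the fibroblast and mural markers, 0 of 5 tested passed against wild type with the siRNA label, and the mean of 4 complete markers was 1.57 to 3.52 in wild type, -0.87 to 2.26 in null and -1.13 to 0.99 in siRNA-labelled samples. In such bulk cultures fewer cells of a type and less RNA per cell cannot be told apart. The part of these shifts in the results below was not tested.

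The promoters of the 5 genes that passed the test against wild type are shown so that their sequence can be read beside their values. Each is the stretch of 250 bases that ends just before the most upstream RefSeq start of the gene, on the gene's strand, in the GRCm38.p6 assembly. Lower case marks sequence without a match to the non-GC motifs searched, and capitals mark a match.
Tjp1, chr7:65371245-65371494, minus strand: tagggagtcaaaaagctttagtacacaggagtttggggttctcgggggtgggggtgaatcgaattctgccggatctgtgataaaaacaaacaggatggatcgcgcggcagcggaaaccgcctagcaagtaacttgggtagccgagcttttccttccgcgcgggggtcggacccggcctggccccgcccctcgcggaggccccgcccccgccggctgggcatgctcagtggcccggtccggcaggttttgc
Dlg1, chr16:31663193-31663442, plus strand: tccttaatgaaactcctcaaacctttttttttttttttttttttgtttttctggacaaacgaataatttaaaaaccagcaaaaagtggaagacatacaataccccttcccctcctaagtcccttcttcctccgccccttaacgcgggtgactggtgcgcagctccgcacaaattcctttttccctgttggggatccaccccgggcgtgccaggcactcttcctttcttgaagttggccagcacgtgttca
Cav1, chr6:17306085-17306334, plus strand: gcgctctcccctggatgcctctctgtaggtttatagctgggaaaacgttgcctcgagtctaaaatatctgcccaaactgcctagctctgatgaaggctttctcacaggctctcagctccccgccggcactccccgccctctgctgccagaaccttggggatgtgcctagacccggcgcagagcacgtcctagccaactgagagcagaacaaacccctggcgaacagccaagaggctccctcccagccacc
Msn, chrX:96095795-96096044, plus strand: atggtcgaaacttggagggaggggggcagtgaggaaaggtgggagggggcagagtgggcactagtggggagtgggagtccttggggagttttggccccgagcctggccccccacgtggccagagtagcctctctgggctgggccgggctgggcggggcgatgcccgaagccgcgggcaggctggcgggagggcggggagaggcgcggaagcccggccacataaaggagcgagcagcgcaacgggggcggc
Tpm1, chr9:67049214-67049463, minus strand: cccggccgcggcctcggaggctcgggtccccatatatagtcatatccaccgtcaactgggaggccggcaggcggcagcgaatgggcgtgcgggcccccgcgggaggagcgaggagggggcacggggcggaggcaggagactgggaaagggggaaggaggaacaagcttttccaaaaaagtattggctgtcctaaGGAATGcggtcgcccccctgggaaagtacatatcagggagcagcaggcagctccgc
The G and C content of these windows was 63.2% for Tjp1, 46.0% for Dlg1, 59.6% for Cav1, 71.6% for Msn and 65.2% for Tpm1. In capitals in Tpm1 is GGAATG, the reverse complement of the TEAD factor site CATTCC, 56 bases before the start.

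Many actin and adhesion genes are known targets of serum response factor, which binds the CArG box. Members without a promoter entry were not searched for it. Among the 31 member genes with an entry, the only matches to this box were in the promoters of Vcl and Actg1. These are shown as 50 bases each, with the box in capitals.
Vcl, chr14:20929151-20929200, plus strand: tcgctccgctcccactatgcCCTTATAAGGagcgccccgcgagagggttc
Actg1, chr11:120348556-120348605, minus strand: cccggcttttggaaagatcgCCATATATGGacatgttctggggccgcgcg
The box lay 227 bases before the start of Vcl and 90 before that of Actg1. In all, 5 motifs were searched on both strands in the 40 windows of the 31 member genes with an entry, and in all 32851 windows of the table. The CArG box was in 2 of the 40 member windows and in 1.47% of all windows. The AP-1 site TGANTCA was in 4 of 40 and 6.75%, and the TEAD site CATTCC in 7 of 40 and 12.6%. The interferon-stimulated response element (ISRE) was in 0 of 40 and 2.98% of all windows. The GC box GGGCGG, which is not set in capitals, was in 29 of 40, from 26 member genes, and 32.7% of all windows. All 5 genes that passed held at least 1 GC box. Of these 5, the other motifs were matched only by Tpm1.

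All differences below are fitted log2 differences from the wild type unless another pair of groups is named. In Cx43 null against wild-type astrocytes, no member passed the test. The count was 0 of 30, against a background of 0.362% of the 16307 probes tested (0.276% higher and 0.0859% lower in null), so a list of this size would hold few or none at that background (limma, adjusted p under 0.05). At an unadjusted p under 0.05 the count was 6 of 30, against 15.6% of all probes, so it is near that background; Tjp1, Dlg1, Msn and Tpm1 were above 0 and Zyx and Itgb1 below. The median change of the 30 genes was 0.05 on the log2 scale, with 17 above 0, and the median of all tested probes was 0.20. The array-pair fit called 0 members and 0 of all probes, and the fit with the replicate number as a block called 2, Msn and Tpm1, against 1.13% of all probes.

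In siRNA-labelled against wild-type samples, 5 of 30 members passed and all 5 were higher: Tjp1, Dlg1, Cav1, Msn and Tpm1. The background was 7.52% of the probes tested in either direction, 5.4% higher and 2.12% lower. That share itself depends on single samples: leaving out 1 at a time gave 1.49% (without siRNA-labelled replicate 4) to 7.52%, and for null against wild type 0.00626% (without wild-type replicate 4) to 0.839% (without wild-type replicate 6). The difference from the background was not tested, and in the array-pair fit 0 members passed, against 1.24% of all probes. Their median change was 0.12 with 17 above 0, against 0.13 for all probes tested. The comparisons of null and of siRNA-labelled samples share the wild-type samples, so the values of both are given side by side and their likeness is no result.

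Between null and siRNA-labelled samples, 1 of 30 members passed, Cav1, which was lower in null. The background was 6.41% of the probes tested, 3.81% higher and 2.6% lower in null, so a count of 1 is no more than that background gives, and with 1 sample left out the share ran from 1.99% (without null replicate 4) to 9.07% (without wild-type replicate 6). The median was -0.18 with 11 above 0, against 0.07 for all probes, and the array-pair fit called 0 members and 0.736% of all probes.

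**Figure D1:**
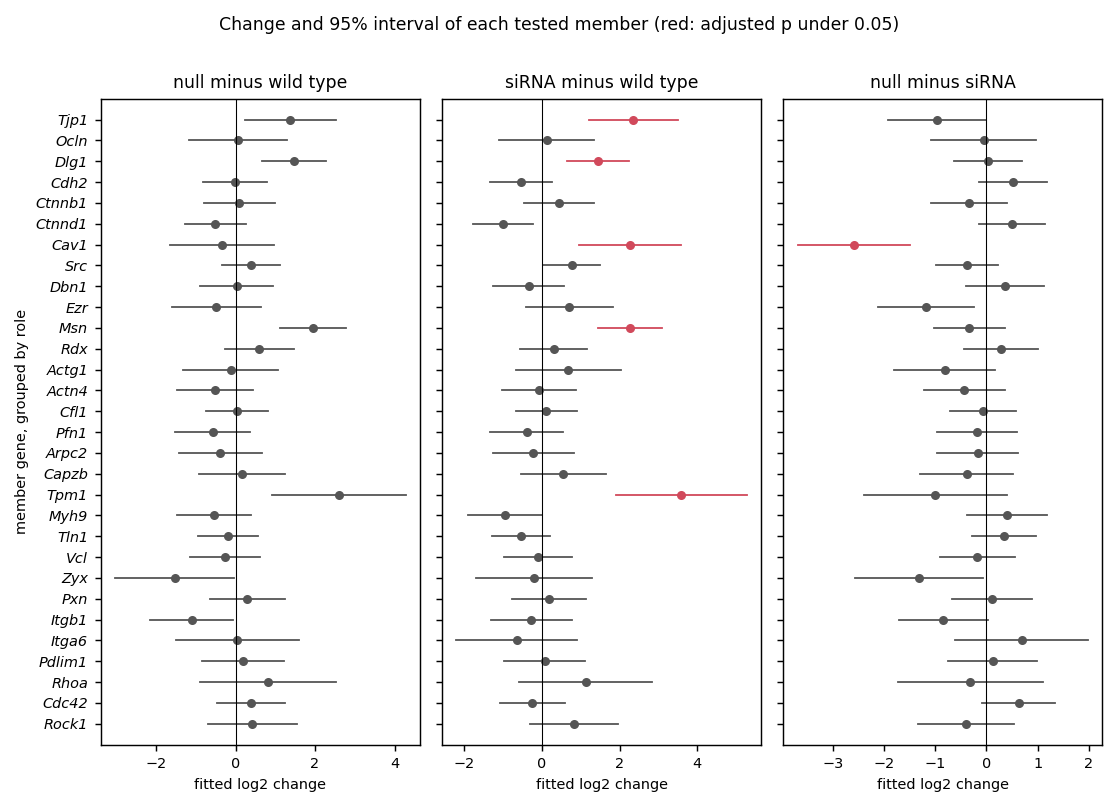
Fitted log2 change and 95% interval (horizontal axes) of the 30 tested members (rows, grouped by role), in 3 panels for null minus wild type, siRNA-labelled minus wild type, and null minus siRNA-labelled. Red points, Tjp1, Dlg1, Cav1, Msn and Tpm1 in the middle panel and Cav1 in the right one, have an adjusted p under 0.05, and most other intervals cross 0.

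Junction scaffolds hold transmembrane proteins in place at cell contacts. Tjp1 encodes ZO-1, the scaffold that binds the Cx43 tail and sets the edge of gap junction plaques. Tjp1 read 0.76, -0.16 and 1.27 in wild type, -2.65, -2.33, 2.63 and 0.94 in null, and -2.02, -2.11, 3.36 and 3.27 in siRNA-labelled samples. The siRNA-labelled samples of replicates 3 and 4 lay above every wild-type sample, those of replicates 1 and 2 lay below, and over all samples the groups overlapped. Tjp1 rose by 2.36 ± 0.52 with the siRNA label, a 5.12-fold change (SE, limma, adjusted p = 0.0222, and 0.135 in the array-pair fit). In null the fitted change was 1.38 ± 0.52 and did not pass (limma, adjusted p = 0.225). Its call rests on how the sets are treated: within replicates 3 and above the means were 0.62 ± 0.72 in wild type (SD, n = 3) and 3.31 ± 0.06 in siRNA-labelled samples (n = 2), and without the set term the fitted change was -0.06. It was also lost when any of wild-type replicates 3 and 4 or siRNA-labelled replicates 3 and 4 was left out, at adjusted p of up to 0.144.

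Dlg1, a scaffold of the discs large family that organises cell polarity and also binds connexins, read 2.48, 2.34 and 2.87 in wild type, 1.89, 1.52, 3.84 and 4.46 in null, and 2.03, 1.77, 3.87 and 3.91 in siRNA-labelled samples. Replicates 3 and 4 of both groups were above every wild-type sample, and replicates 1 and 2 of both were below. Dlg1 rose by 1.45 ± 0.37 with the siRNA label, 2.73-fold (SE, limma, adjusted p = 0.036, and 0.198 in the array-pair fit). In null the fitted change was 1.48 ± 0.37, which missed the threshold (limma, adjusted p = 0.0867), and null differed from siRNA-labelled samples by 0.03 with a 95% interval of -0.64 to 0.70. The call held in only 2 of 11 fits that left out 1 sample each, with changes of 1.33 to 1.59 and adjusted p of 0.0329 to 0.142. Without the set term the change was 0.34, and over all 14 samples 0.78, and neither passed (limma, adjusted p = 0.914 and 0.235).

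Ocln, a membrane protein of tight junctions, read 1.92, 0.48 and -0.55 in wild type, -0.17, -0.20, 1.96 and 0.24 in null, and 0.48, 0.38, 0.49 and 0.68 in siRNA-labelled samples. The siRNA-labelled samples spanned little of the wild-type range and the groups overlapped. The fitted changes were 0.07 in null (95% interval -1.16 to 1.30) and 0.12 with the siRNA label (-1.11 to 1.36).

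**Figure D2:**
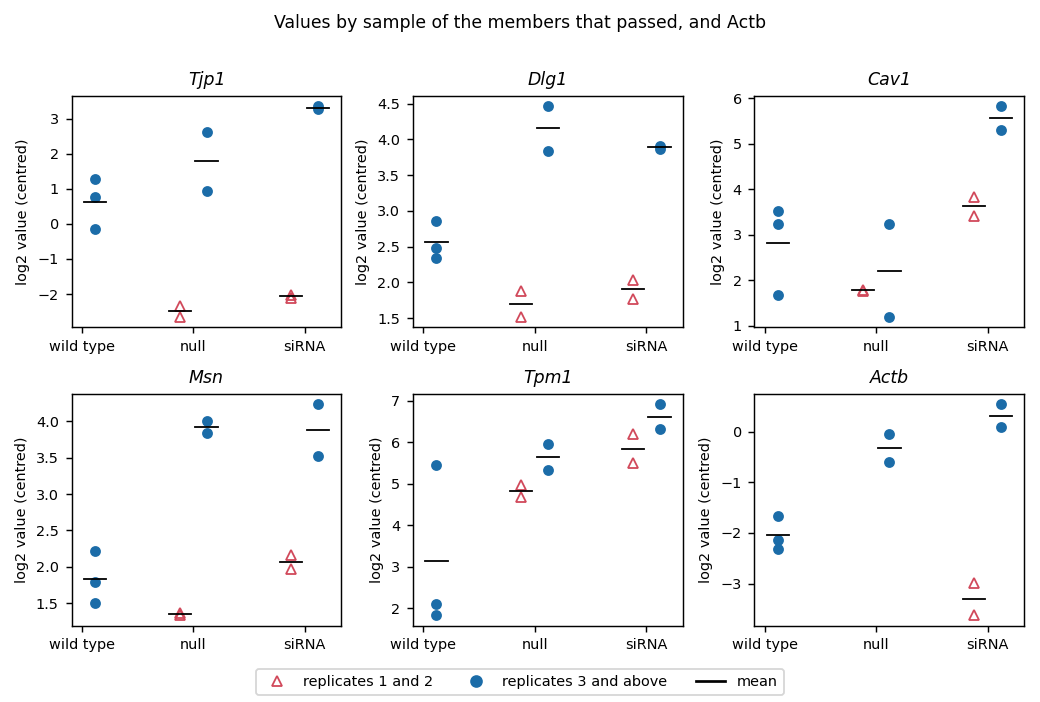
Log2 values (vertical axes, centred on the median probe of each sample) of Tjp1, Dlg1, Cav1, Msn, Tpm1 and Actb by group. Open triangles are replicates 1 and 2, filled circles replicates 3 and above, and bars the mean of each, so the wild type has circles only. Within circles the siRNA-labelled samples stand above the wild-type ones in all 6 panels, while in Tjp1, Dlg1 and Actb the triangles lie below the wild-type circles.

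Cadherins join neighbouring cells and catenins tie them to actin. Cdh2, or N-cadherin, ranged from 5.98 to 6.24 in wild type, 5.34 to 6.31 in null and 5.00 to 5.63 in siRNA-labelled samples. The siRNA-labelled and wild-type samples did not overlap, yet the fitted change of -0.53 did not pass (95% interval -1.33 to 0.26, limma, adjusted p = 0.421). Groups that do not overlap were found for 4 of 30 members in that comparison, Cdh2, Ctnnd1, Tpm1 and Tln1, against 15% of all probes tested. In null against wild type there were 2, Ctnnd1 and Zyx, against 8.14%, and between null and siRNA-labelled samples there was 1, Cav1, against 9.61%. None of these counts exceeds its background.

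Ctnnb1, beta-catenin, links cadherins to the actin-binding alpha-catenin and also acts in Wnt signalling. Ctnnb1 read 5.25, 6.11 and 5.86 in wild type, 3.88, 3.57, 5.47 and 6.51 in null, and 4.28, 4.84, 5.43 and 6.24 in siRNA-labelled samples. Replicates 1 and 2 were low in both groups and replicates 3 and 4 were in or above the wild-type range, so the groups overlapped. The fitted changes were 0.10 in null (95% interval -0.79 to 0.99) and 0.44 with the siRNA label (-0.45 to 1.33).

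Ctnnd1, p120-catenin, keeps cadherins at the surface. Ctnnd1 read 2.35, 2.48 and 2.46 in wild type, 1.13, 1.16, 1.60 and 2.15 in null, and 0.19, 1.22, 0.93 and 1.70 in siRNA-labelled samples. Every null and siRNA-labelled sample was below every wild-type sample. The fitted change with the siRNA label was -1.01 ± 0.35 and missed the threshold (SE, limma, adjusted p = 0.109). With quantile normalization it was -1.14 and passed (limma, adjusted p = 0.0354). In null it was -0.51 ± 0.35 (limma, adjusted p = 0.547).

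Caveolins coat small membrane pits, and Cav1, their main structural protein, also binds Cx43. Cav1 was the member that set null and siRNA-labelled samples apart. Cav1 read 3.53, 1.69 and 3.24 in wild type, 1.79, 1.78, 3.23 and 1.20 in null, and 3.42, 3.83, 5.83 and 5.31 in siRNA-labelled samples. Every siRNA-labelled sample was above every null sample, and replicates 3 and 4 were above every wild-type sample. Cav1 was lower in null than in siRNA-labelled samples by a fitted -2.60 ± 0.50, 6.05-fold (SE, limma, adjusted p = 0.0142, and 0.111 in the array-pair fit). Within replicates 1 and 2 the difference of means was -1.84 and within replicates 3 and 4 it was -3.35. Against wild type Cav1 rose by 2.26 ± 0.60 with the siRNA label, 4.79-fold (SE, limma, adjusted p = 0.0429, and 0.218 in the array-pair fit), and in null its change was -0.34 (95% interval -1.65 to 0.97). Leaving out 1 sample at a time kept the difference between null and siRNA-labelled samples in 9 of 11 fits, losing it without siRNA-labelled replicate 3 or 4 (adjusted p of up to 0.0586), and kept the rise over wild type in 4 of 11. Without the set term neither call was kept (limma, adjusted p = 0.163 and 0.449), nor over all 14 samples (0.0642 and 0.0901). Microglial markers moved in the comparison of null with siRNA-labelled samples too: 12 of 12 were above 0, 6 passed as higher in null (2 in the array-pair fit) and the median was 1.50. Of all probes, 3.81% passed as higher in null. Also higher were 2 of 9 astrocyte, 2 of 5 ependymal and 1 of 3 endothelial markers. So were 1 of 5 fibroblast and mural and 1 of 5 oligodendrocyte lineage markers, but 0 of 5 neuron markers. The part of these markers in the Cav1 difference was not tested.

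Cav2, which forms oligomers with Cav1, was not tested because null replicates 3 and 4 had no value. Cav2 read 4.51, 4.52 and 4.95 in wild type, 3.10 and 2.40 in null replicates 1 and 2, and 1.68, 1.00, 5.15 and 4.26 in siRNA-labelled samples. Replicates 3 and 4 of the siRNA-labelled samples had a mean within 0.05 of the wild-type mean, and replicates 1 and 2 of both groups were low. In replicates 1 and 2 the null mean of Cav2 was above the siRNA-labelled mean by 1.41, where that of Cav1 was below it.

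Src, the tyrosine kinase that phosphorylates the Cx43 tail, read -0.13, -0.30 and -0.29 in wild type, -1.15, -1.13, 0.12 and 0.36 in null, and -0.70, -0.42, 0.30 and 0.51 in siRNA-labelled samples. Replicates 3 and 4 of both groups were above every wild-type sample, and replicates 1 and 2 were below. The fitted change with the siRNA label was 0.77 ± 0.33 and did not pass (SE, limma, adjusted p = 0.19). A second Src probe gave 0.76 (limma, adjusted p = 0.304).

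Dbn1, drebrin, binds actin filaments and the Cx43 tail. Dbn1 read 3.99, 4.53 and 3.56 in wild type, 2.28, 2.38, 3.93 and 4.55 in null, and 2.13, 2.80, 3.02 and 3.71 in siRNA-labelled samples. Replicates 3 and 4 of null lay in or just above the wild-type range, and all groups overlapped. The fitted changes were 0.03 in null (95% interval -0.88 to 0.94) and -0.34 with the siRNA label (-1.25 to 0.58).

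Ezrin, radixin and moesin link membrane proteins to cortical actin, and of the 3 genes only Msn, moesin, passed. Msn read 1.78, 1.49 and 2.22 in wild type, 1.33, 1.36, 3.84 and 4.01 in null, and 1.96, 2.16, 3.52 and 4.24 in siRNA-labelled samples. Replicates 3 and 4 of both groups were far above the wild-type samples, while siRNA-labelled replicates 1 and 2 lay inside the wild-type range and null replicates 1 and 2 below it. Msn rose by 2.27 ± 0.38 with the siRNA label, 4.84-fold (SE, limma, adjusted p = 0.00662, and 0.054 in the array-pair fit). In null the fitted value was 1.94 ± 0.38, just short of the threshold (limma, adjusted p = 0.0583), and with the replicate block it was 2.09 and passed (limma, adjusted p = 0.0442). Its rise with the siRNA label passed in 10 of 11 fits that left out 1 sample, and without siRNA-labelled replicate 4 the adjusted p was 0.0521. Without the set term the change was 1.18, and over all 14 samples 0.99, and neither passed (limma, adjusted p = 0.666 and 0.316).

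Of the 10 members with several tested probes, Msn alone had more than 1 probe called. A second Msn probe rose by 2.68 with the siRNA label (limma, adjusted p = 0.011), and the third had a fitted difference of 0.55 and did not pass (limma, adjusted p = 0.558). Over all members, 6 of 46 tested probes were called with the siRNA label (7.52% of all probes), 0 of 46 in null (0.362%) and 2 of 46 between null and siRNA-labelled samples (6.41%).

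Ezr, ezrin, read 5.31, 3.90 and 5.15 in wild type, 3.12, 3.82, 5.20 and 3.76 in null, and 4.61, 5.23, 5.41 and 5.39 in siRNA-labelled samples. Null replicate 3 was high among the null samples and lay within the range of the siRNA-labelled samples, so the groups overlapped. Null minus siRNA-labelled was -1.19 ± 0.43 and did not pass (SE, limma, adjusted p = 0.117). Rdx, radixin, had a fitted difference of 0.60 in null (95% interval -0.26 to 1.47) and 0.31 with the siRNA label (-0.55 to 1.18).

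The actins were covered unevenly. Actg1, cytoplasmic gamma-actin, read 6.07 and 8.09 in wild-type replicates 3 and 4, 3.75, 4.58, 6.33 and 8.14 in null, and 5.11, 5.96 and 6.45 in siRNA-labelled replicates 1 to 3, and wild-type replicate 6 and siRNA-labelled replicate 4 had no value. In replicates 1 and 2 the null mean was below the siRNA-labelled mean by 1.37 on the log2 scale, in both groups replicate 3 was above replicates 1 and 2, and the groups overlapped. The fitted changes, over 9 samples, were -0.12 in null (95% interval -1.32 to 1.07) and 0.69 with the siRNA label (-0.66 to 2.03). Actn4, an alpha-actinin that crosslinks actin filaments, had a fitted difference of -0.51 in null and -0.07 with the siRNA label, and neither passed.

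Actb, cytoplasmic beta-actin, is known as an abundant RNA, but its 17 probes read only from -3.96 to 1.65, where the median probe of a sample is 0. Its best-measured probe read -1.66, -2.14 and -2.31 in wild type, -0.59 and -0.05 in null replicates 3 and 4, and -3.63, -3.00, 0.10 and 0.55 in siRNA-labelled samples, and null replicates 1 and 2 had no value. Replicates 3 and 4 of both groups were above every wild-type sample and siRNA-labelled replicates 1 and 2 were below. In replicates 3 and above, the siRNA-labelled mean was above the wild-type mean at 9 of 9 probes with every value, by 1.16 to 2.36, and the groups overlapped at none of them. Of all probes with every value there, 21.9% were higher without overlap. The null mean was above the wild-type mean at 10 of 10 probes with every value, by 0.18 to 1.72, without overlap at 6, against 24.5% of all probes. Probes of 1 gene read the same RNA and are not replicates. The 1 Actb probe that could be tested had no value in wild-type replicate 6, so it is not among those counted. It read -1.99 and -2.36 in wild-type replicates 3 and 4, and -2.20 and -2.45 in null replicates 3 and 4. Its fitted difference was 1.15 with the siRNA label and -0.08 in null (limma, adjusted p = 0.147 and 0.958).
The number of Actb probes with a value was 14, 16 and 10 in wild type, 0, 1, 16 and 16 in null, and 5, 9, 16 and 16 in siRNA-labelled samples, so missing values gathered in replicates 1 and 2.

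Actin dynamics are run by proteins that sever, bind, branch, cap and coat filaments, and of the 6 tested only Tpm1 passed. Tpm1 encodes tropomyosin, which coats actin filaments and stabilises them. Tpm1 read 1.83, 2.11 and 5.45 in wild type, 4.97, 4.68, 5.96 and 5.32 in null, and 5.50, 6.19, 6.32 and 6.91 in siRNA-labelled samples. Every siRNA-labelled sample was above every wild-type sample, though wild-type replicate 6 fell short of the lowest of them by little and lay within the null range. Tpm1 rose by 3.59 ± 0.77 with the siRNA label, 12.0-fold (SE, limma, adjusted p = 0.0194, and 0.098 in the array-pair fit), the largest change among the members tested there. The call was lost in 4 of 11 fits that left out 1 sample, those without wild-type replicate 3 or 4 or siRNA-labelled replicate 3 or 4, with changes of 2.89 to 4.66 over the 11 (limma, adjusted p of up to 0.0936). It was also lost without the set term, at 3.19, and over all 14 samples, at 2.30 (limma, adjusted p = 0.177 and 0.118). In null the fitted value was 2.59 ± 0.77 (limma, adjusted p = 0.132). With the replicate block, which sets aside wild-type replicate 6, it was 3.66 and passed (limma, adjusted p = 0.00264).

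The rise of Tpm1 was seen at 1 of its 4 tested probes. The fitted differences at the others were 0.04, 0.64 and 0.88 with the siRNA label, and none passed (limma, adjusted p = 0.979, 0.615 and 0.24). Which transcripts of Tpm1 each probe reads was not analysed here.

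**Figure D3:**
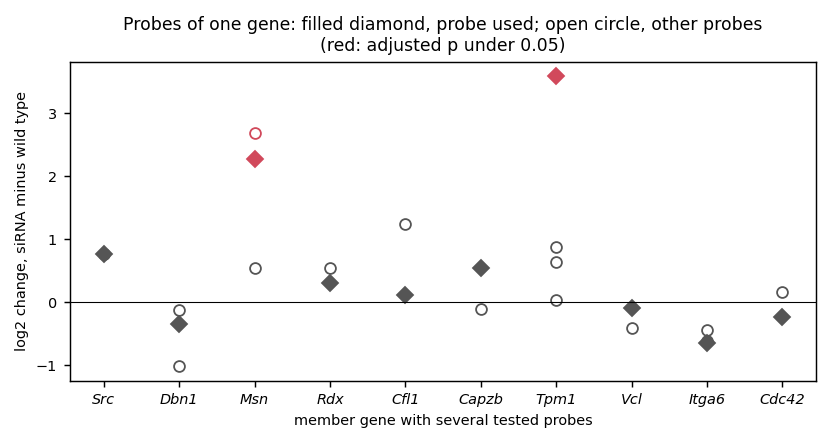
Fitted log2 change of siRNA-labelled minus wild-type samples (vertical axis) at each tested probe of the 10 members with several tested probes (horizontal axis). Filled diamonds are the probes used for each gene, open circles its other probes, and red marks an adjusted p under 0.05. Msn has 2 red probes at 2.27 and 2.68, and Tpm1 has 1 at 3.59 with its others from 0.04 to 0.88.

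The other regulators stayed short of the threshold in every comparison. Cfl1, cofilin, which severs filaments, had the smallest fitted values among the 6, 0.05 in null (95% interval -0.73 to 0.82) and 0.12 with the siRNA label (-0.65 to 0.90), and a second, dimmer Cfl1 probe gave 1.00 and 1.24 without passing. Pfn1, profilin, which loads actin monomers, had fitted differences of -0.58 in null and -0.39 with the siRNA label. Arpc2, a subunit of the branching Arp2/3 complex, had -0.38 and -0.21. Capzb, which caps filament ends, had 0.17 and 0.55, and Myh9, the heavy chain of non-muscle myosin II, had -0.54 and -0.95.

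Integrin adhesion genes held none that passed among 7 tested. Zyx, zyxin, a sensor of tension at focal adhesions, read 3.59, 3.65 and 3.54 in wild type, 0.68, 1.11, 2.54 and 3.13 in null, and 3.45, 4.36, 2.31 and 2.64 in siRNA-labelled samples. Every null sample was below every wild-type sample, while the siRNA-labelled samples lay near or above wild type in replicates 1 and 2 and below it in replicates 3 and 4. The fitted change in null was -1.53 ± 0.68 and did not pass (SE, limma, adjusted p = 0.309). Null minus siRNA-labelled was -1.32 ± 0.57 (limma, adjusted p = 0.177), made up of -3.01 in replicates 1 and 2 and 0.36 in replicates 3 and 4.

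Itgb1, the beta1 subunit shared by many integrins, read 5.26, 6.47 and 6.09 in wild type, 2.64, 2.60, 3.33 and 5.92 in null, and 3.18, 3.56, 5.00 and 6.10 in siRNA-labelled samples. Null replicate 4 lay inside the wild-type range and the other null samples lay below it. The fitted change in null was -1.10 ± 0.48 and did not pass (SE, limma, adjusted p = 0.293), and with the siRNA label it was -0.26 (95% interval -1.31 to 0.78). Itga6, an alpha subunit of laminin receptors, was higher in null than in siRNA-labelled samples by 1.53 at 1 of its 3 probes (limma, adjusted p = 0.0205), while its best-measured probe gave 0.69 (limma, adjusted p = 0.514) and differed between the sets, by 2.30 in replicates 1 and 2 and -0.92 in replicates 3 and 4.

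The adaptors of the adhesion plaque had small fitted values. Tln1, talin, which activates integrins, had a fitted difference of -0.19 in null and -0.53 with the siRNA label. Vcl, vinculin, which binds talin to actin, had -0.27 and -0.09, and a second Vcl probe gave 0.50 and -0.41. Pxn, paxillin, had 0.29 and 0.18, and Pdlim1, an alpha-actinin partner, had 0.19 and 0.07. Neither Vcl nor Actg1, the 2 members found with a CArG box among those searched, passed in any of the 3 comparisons.

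Cdc42, which drives filopodia, read 4.76, 4.26 and 4.94 in wild type, 4.09, 4.03, 5.60 and 4.96 in null, and 3.84, 3.88, 4.13 and 4.31 in siRNA-labelled samples. The groups overlapped, and in both sets the null mean was above the siRNA-labelled mean, by 0.20 and 1.06. The fitted difference of 0.63 ± 0.32 did not pass (SE, limma, adjusted p = 0.258). Rhoa had a fitted difference of 0.82 in null and 1.13 with the siRNA label, with wild-type replicate 6 at 3.03 against 6.35 and 6.19 in the other wild-type samples, and Rock1 had 0.43 and 0.83, and none of these passed.

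Missing the threshold does not show that a gene did not change. The 95% interval lay within a change of 1 log2 unit either way for 5 of 30 members in null against wild type (Cdh2, Ctnnb1, Dbn1, Cfl1 and Tln1), for 2 with the siRNA label (Cfl1 and Vcl), and for 9 between null and siRNA-labelled samples. For the other genes the interval reached past that size. These intervals are for the probe used, and other probes of a gene need not share them. The second Cfl1 probe had fitted differences of 1.00 in null and 1.24 with the siRNA label.

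The members also differed between the replicate sets. The set difference passed for 16 of 30 members, against a background of 46.5% of all probes tested, with 40.4% lower and 6.13% higher in replicates 1 and 2. The members' count is near that background and is not particular to them. Lower in replicates 1 and 2 were 15 of the 16, with Tjp1 at -4.83, Capzb at -3.72, Actg1 at -2.51, Dlg1 at -2.22 and Msn at -2.20 (limma, adjusted p = 9.0e-06, 3.3e-05, 0.00129, 0.000143 and 0.000199). Arpc2 was the exception, higher by 1.47 (limma, adjusted p = 0.00659). These values are at the probe used for each gene, and other probes did not all follow. The second Vcl probe was higher in replicates 1 and 2, at 5.83 and 5.74 against 4.20 and 3.59 in null. The second Actg1 probe read 7.70 in siRNA-labelled replicate 1 and 6.12 in replicate 3. A second Capzb probe was lower in replicates 1 and 2, at 4.07 and 4.19 against 5.09 and 5.37 in null. Of the 5 genes that passed with the siRNA label, Tjp1, Dlg1 and Msn also passed for the set, and Cav1 and Tpm1 did not (limma, adjusted p = 0.0713 and 0.33). The labels do not say what the sets are.

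**Figure D4:**
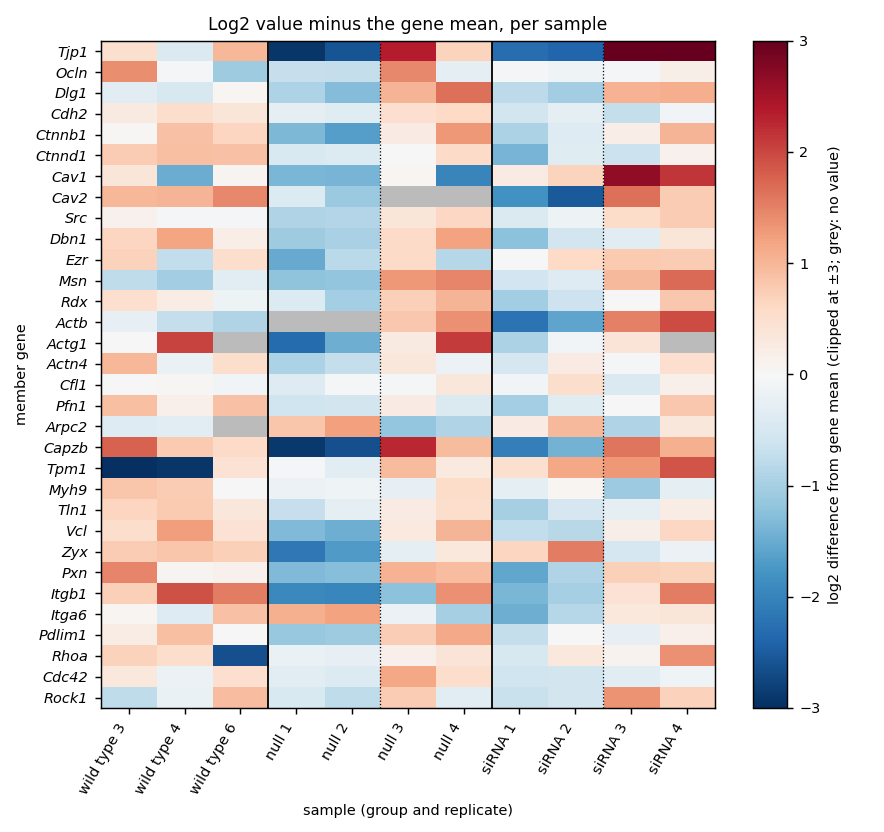
Log2 value minus the mean of the gene (colour, held at 3 either way) for the 32 members with a probe (rows, by role) in 11 samples (columns), with solid lines between groups, dotted lines between replicate sets and grey for no value. Replicates 1 and 2 of null and siRNA-labelled samples are blue for most rows, Arpc2 is the reverse, and Tpm1 is blue in wild-type replicates 3 and 4.

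Null and siRNA-labelled samples exist in both sets, so their difference can be read in each. Its sign was opposite in the 2 sets for 16 of 30 members. Null was below siRNA-labelled for 22 members in replicates 1 and 2, for 12 in replicates 3 and 4, and for 9 in both: Tjp1, Cav1, Src, Ezr, Actn4, Tpm1, Itgb1, Rhoa and Rock1. The matching shares of all tested probes were not worked out, so these counts are not read as particular to the members. Cav1 had the largest difference among the members in replicates 3 and 4 and Zyx in replicates 1 and 2.

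**Figure D5:**
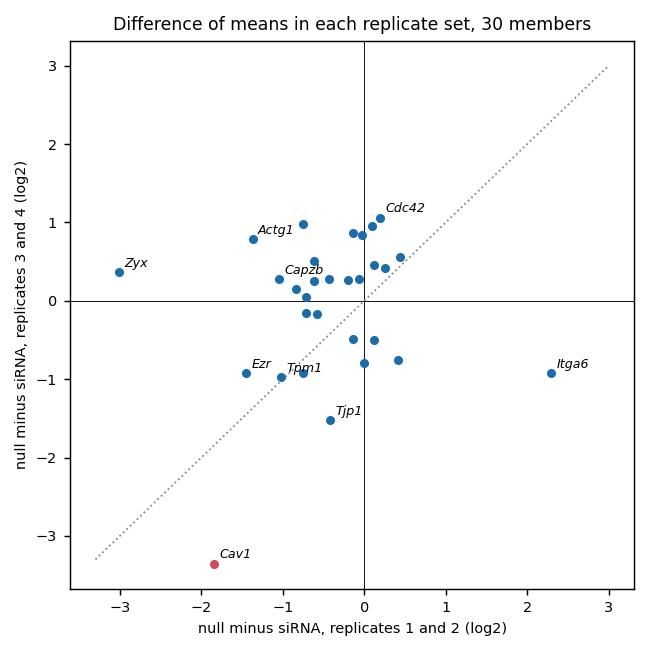
Difference of the mean log2 values of null and siRNA-labelled samples in replicates 1 and 2 (horizontal axis) and in replicates 3 and 4 (vertical axis) for the 30 tested members, with a dotted line where both are equal. Cav1, in red, is low on both axes at -1.84 and -3.35, while Zyx (-3.01 and 0.36) and Itga6 (2.30 and -0.92) differ in sign between the axes.

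Other genes of the same pathways were taken from a list of 168, of which 136 had a probe and 106 were tested. In null against wild type 0 passed, with 14 at an unadjusted p under 0.05. The share of all probes at that unadjusted p was 15.6%. With the siRNA label 5 rose and 3 fell, against 7.52% of all probes, and between null and siRNA-labelled samples 6 were higher and 1 lower in null, against 6.41%. These counts are near the background and are not particular to the list, and the genes named next describe it. The medians were 0.25, 0.22 and 0.07, near those of all probes.

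Arhgef2, a microtubule-bound exchange factor, rose most clearly with the siRNA label, by 3.42 ± 0.57 (SE, limma, adjusted p = 0.00662), and was the only gene of either list to pass there in the array-pair fit (limma, adjusted p = 0.0342). Arhgef2 read -0.41, -1.24 and -2.99 in wild type, -0.84, -0.69, 0.94 and -0.55 in null, and 1.41, 1.72, 2.10 and 1.54 in siRNA-labelled samples. All siRNA-labelled samples, in both sets, lay above all others, and null was lower than siRNA-labelled by a fitted -1.98 (limma, adjusted p = 0.0325, and 0.171 in the array-pair fit). The others of smallest p were Cldn12, a claudin of tight junctions, at 2.25, Arpc5, a subunit of the Arp2/3 complex, at 1.91, Capza1, the capping partner of Capzb, at -4.13, and Sorbs3, a vinculin-binding adaptor, at -1.45 (limma, adjusted p = 0.0116, 0.0203, 0.0311 and 0.0345). Capza1 read 5.23, 4.22 and 3.91 in wild type, 4.23, 4.06, 4.82 and 5.00 in null, and 3.28, 3.48, -1.56 and -0.33 in siRNA-labelled samples, so its fall is large in replicates 3 and 4.

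Higher in null than in siRNA-labelled samples were Sptan1 and Sptbn1, the alpha and beta spectrins of the membrane skeleton, by 2.66 and 1.61, Itgb5, an integrin subunit, by 1.56, Pard3, a polarity scaffold, by 1.92, and Add3, which caps actin beneath the membrane, by 1.28 (limma, adjusted p = 0.0113, 0.0205, 0.0214, 0.0291 and 0.0352). Sptan1 read 5.91, 6.42 and 7.09 in wild type, 6.13, 5.91, 5.86 and 6.84 in null, and 1.91, 2.25, 4.84 and 5.11 in siRNA-labelled samples. Its siRNA-labelled samples lay below all others in both sets. Against wild type Sptan1 had a fitted difference of -2.06 ± 0.59 with the siRNA label and missed the threshold (limma, adjusted p = 0.0568), and none of these 5 passed in the array-pair fit.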

How the data were processed

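RNA was measured on spotted oligonucleotide arrays in 14 samples, grouped by their titles. The deposited values are on the log2 scale, and each column has a median of 0. How the authors corrected, filtered and normalized them is not given in the sources used. Signal over background is unknown, so precision is limited by how many arrays there are. Of the array's 33600 probes, 18179 carry 1 gene symbol, 87 carry several and 15334 none here. The members and gene lists were chosen with earlier results of these data known. Wild-type replicates 1, 2 and 5 were left out.

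Contrasts came from limma 3.58.1 (lmFit, eBayes) in R 4.3.3 on 11 samples, with group, dye and replicate set (1 and 2, or 3 and above) as terms and 6 residual degrees of freedom. A probe with at least 2 wild-type, 3 null and 3 siRNA values was tested, 16307 in all, two-sided, with Benjamini-Hochberg adjustment per contrast and a threshold of 0.05. In the array-pair fit the pairs were a random block (correlation 0.45). Given in full are members called, the 6 of smallest p per contrast, Cx43 partners and actins. Of the wider list, up to 5 called genes of smallest p per contrast are named. The fit was tested on simulated data with independent errors between samples and changes planted in the siRNA group alone. That test does not bear on whether calls hold when consecutive samples are pairs. Same-numbered samples of different groups deviated together from their group means (r of 0.14 to 0.62). With the set mean also removed, r was 0.27 to 0.50. Samples of the same number share the set, and dye follows odd and even numbers, so these values cannot show pairing. The replicate block takes the titles' numbers to pair samples. Alternatives were no set term, the replicate block, no dye term, all 14 samples, each set alone, array weights, quantile and scale normalization, stricter and looser filters, the brightest probe per gene, and leaving out each sample.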

Additional observations from a re-analysis of the deposited data

Results flagged for a closer look

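Cav1 was set apart because it differed between null and siRNA-labelled samples by a test of that difference itself: null minus siRNA-labelled was -2.60 on the log2 scale (limma, adjusted p = 0.0142, and 0.111 with array pairs as a random block). All 4 null samples were below all 4 siRNA-labelled samples. In null and siRNA-labelled samples, no member had a sample far from the others of its group by Dixon's test, run on groups of 4. Where replicates 1 and 2 lie apart from 3 and 4, that test can hardly flag 1 sample. The wild type was not tested so. There, replicate 6 read 3.03 for Rhoa, against 6.35 and 6.19. For Tpm1 it read 5.45, against 1.83 and 2.11.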

How the results depend on the processing

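The share of all probes called under a setting is given in brackets as a percentage. In null against wild type the members called, 0, became 2 with the replicate block (Msn and Tpm1, 1.13%). The count was 1 (Msn) without the dye term (0.889%) and within replicates 3 and above (4.58%). It was also 1 (Msn) with quantile normalization (0.668%) and with probes measured in all 11 samples (0.513%). When 1 sample was left out it ran from 0 to 2 (2 without wild-type replicate 6), beside 0.00626% to 0.839% of all probes. With the siRNA label the 5 members called became 0 without the set term (0.239%) and with array pairs as a random block (1.24%). Over all 14 samples the count was also 0 (3.58%). When 1 sample was left out it ran from 0 to 5, beside 1.49% to 7.52% of all probes. That count was 1 without wild-type replicate 3, wild-type replicate 4 or siRNA-labelled replicate 3, 0 without siRNA-labelled replicate 4, and 3 without null replicate 1 or siRNA-labelled replicate 2. With the brightest probe per gene it was 4, because Tpm1 then changed by 0.04. Quantile normalization added Ctnnd1 to the calls with the siRNA label (10.7%). Over all comparisons, scale normalization and the fit within replicates 3 and above each left 1 result weaker. Between null and siRNA-labelled samples the 1 member became 0 under the same 3 settings (0.448%, 0.736% and 1.12%, in that order). Within replicates 1 and 2 the count was 16, where 49.2% of all probes were called. With array weights it was 2 (Zyx added, -1.84), where 15% of all probes were called, so it does not exceed that background. When 1 sample was left out it ran from 0 to 1 (0 without siRNA-labelled replicate 3 or 4), beside 1.99% to 9.07% of all probes. The replicate block left 5 and 1 calls in the last 2 comparisons (8.65% and 9.4%) and changed no other call. Without the set term the median change became -0.53 in null and -0.42 with the siRNA label, and Tjp1 turned from 2.36 to -0.058 with the siRNA label. The median of null minus siRNA-labelled was 0.20 within replicates 3 and above and -0.43 within replicates 1 and 2. Quantile normalization moved the median of all probes in null against wild type from 0.20 to 0.00. The cause of these shifts was not tested. The wild type has no sample in the first set, so its place in the fit rests on the set effect being alike in all groups.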
